A study of Homo sapiens with 6 samples.

Results

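The enzymes described here make serine, glycine, asparagine and cysteine inside the cell. The set holds 9 genes (PHGDH, PSAT1, PSPH, SHMT1, SHMT2, MTHFD2, ASNS, CTH and CBS) out of 11963 genes with a probe set of their own. A549, a widely used cell line from a human lung adenocarcinoma, was profiled on 6 Affymetrix arrays, a pair for each of 3 groups. The first group received the pCMV5 plasmid carrying human PIAS3, which inhibits STAT3 and ligates SUMO. The second received siRNA directed at STAT3. The third, the EGF control, was untransfected per its labels, so no empty vector or non-targeting siRNA stands beside the transfected arrays here. For all 6 arrays the labels give 12 h of seeding and culture with 10% FBS. By the design text every group went through serum-free medium and then EGF, while only the control titles name EGF. Transfected cells were harvested at 48 h, and the harvest time of the control is not given in the labels.

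Of the probe sets assigned to a gene alone, the brightest on average stands for it, and its other probe sets are given beside it. In all, 15 probe sets name a member: 13 carry a single symbol and 2 carry several. The probe sets were chosen by their mean level, and the 9 genes were picked with earlier results of these arrays known, so their values are a description. Values are log2 expression as deposited, so a difference of 1 is a doubling, and errors beside differences are standard errors with n = 2 per group. Nothing in the labels tells whether paired arrays came from different cultures, so each test measures the scatter of these particular arrays, possibly technical.

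Serine is made from a glycolytic intermediate in 3 steps: PHGDH oxidises 3-phosphoglycerate, PSAT1 adds an amino group taken from glutamate, and PSPH removes the phosphate. The serine hydroxymethyltransferases SHMT2 (mitochondria) and SHMT1 (mainly cytosol) turn serine into glycine and hand a carbon unit to folate, which MTHFD2 carries on in mitochondria. CBS joins serine to homocysteine and CTH splits the product to release cysteine, while ASNS makes asparagine from aspartate with nitrogen from glutamine. Many of these genes are known targets of ATF4, the transcription factor of the amino acid and integrated stress response, and in lung cancer cells NRF2 is known to act on the serine pathway through ATF4. A549 cells carry a loss-of-function KEAP1 mutation and have high NRF2 activity.

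The arrays were checked before the genes were read. The 5 epithelial markers measured (KRT8, KRT18, KRT19, EPCAM and CDH1) all had mean levels above the median of all probe sets. Of the leukocyte, fibroblast, endothelial and hepatocyte markers, 2 lay above that median, COL1A1 and TTR. STAT3 itself read 10.18 and 9.70 with PIAS3, 10.23 and 9.94 with the siRNA, and 10.50 and 10.43 in control arrays. The siRNA gave a log2 difference of -0.38 ± 0.18 (SE, n = 2 per group) that did not pass the test (limma adjusted p = 0.9998). With PIAS3 the STAT3 difference was larger, -0.53 ± 0.18, and did not pass either (limma adjusted p = 0.254). A dimmer STAT3 probe set gave -0.33 ± 0.15 with the siRNA and -0.60 ± 0.15 with PIAS3. PIAS3 read 7.78 and 7.72 in the arrays labelled PIAS3, against 7.70 and 7.71 in control arrays (0.04 ± 0.11), and whether its probe set can read the plasmid transcript is not known from the files. The group names used here are those of the labels. PIAS3 replicate 1 stood apart from all other arrays. Its median over 10 interferon-stimulated genes lay 4.50 above the control mean, against -0.04 in PIAS3 replicate 2, and its poly-A spike-in probe sets lay 1.38 above, against -0.13 in replicate 2. The difference between the 2 arrays of a group had an SD over all genes of 0.37 for PIAS3, 0.26 for the STAT3 siRNA and 0.14 for the control.

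Both STAT3 siRNA arrays and PIAS3 replicate 2 lay above the control mean for 9 of 9 genes, with medians of 0.42, 0.42 and 0.43 on the log2 scale. For SHMT1, whose probe set is dim, these 3 arrays lay above by only 0.07, 0.06 and 0.003. PIAS3 replicate 1 lay below the control mean for 7 of 9, with a median of -0.35, and read lower than PIAS3 replicate 2 for 9 of 9. Over all genes the medians of these arrays lay between -0.02 and 0.02. None of the 9 genes passed the test in any of the 3 comparisons (limma, adjusted over 22215 probe sets, threshold 0.05). In these bulk samples, fewer cells with a transcript and less of it per cell cannot be told apart.

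**Figure D1:**
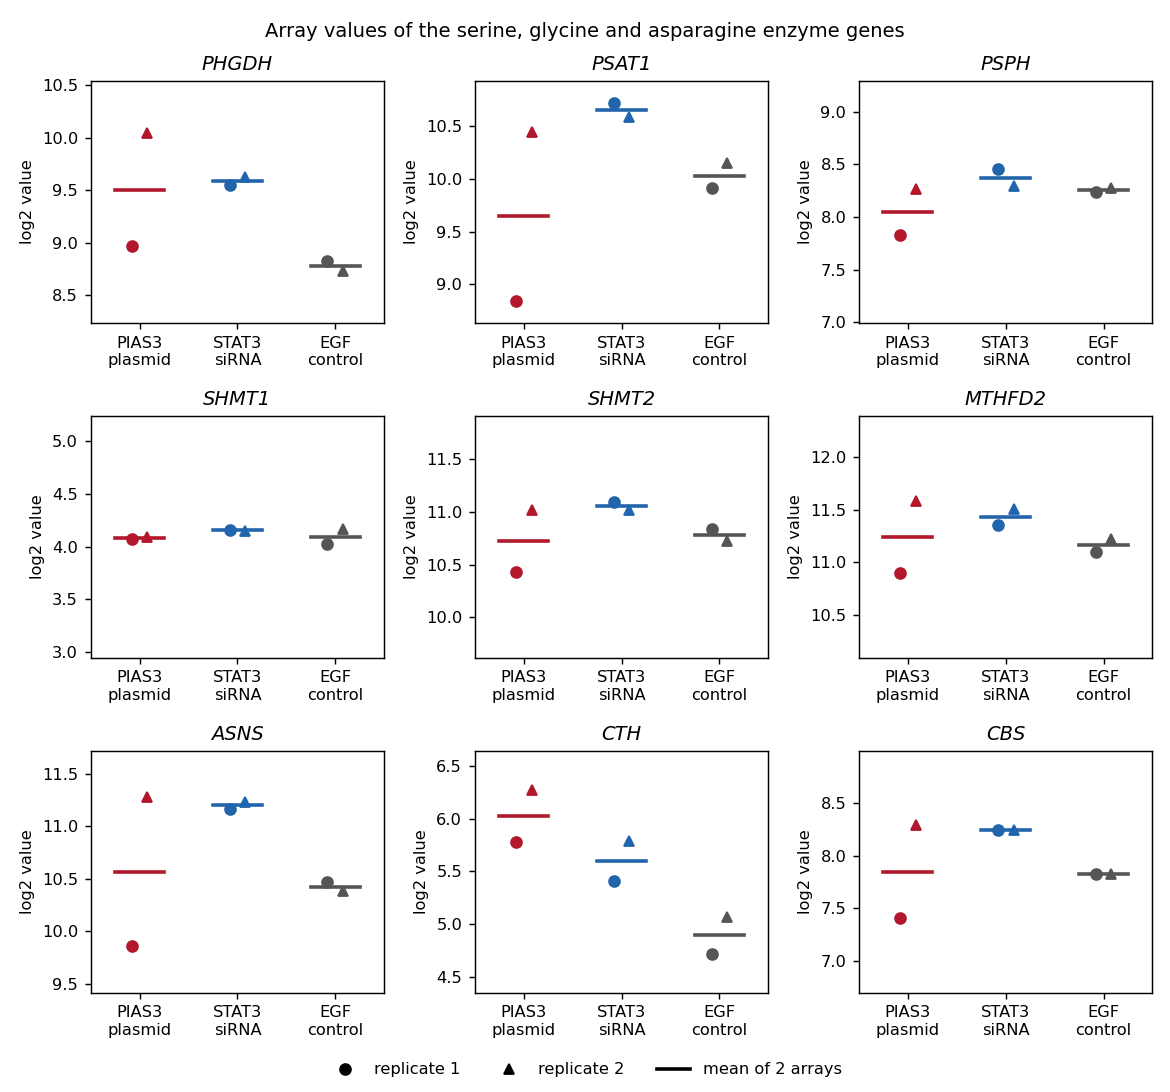
Array values of the 9 genes on the log2 scale, with PIAS3 plasmid, STAT3 siRNA and EGF control from left to right; circles are replicate 1, triangles replicate 2 and bars the mean of 2 arrays, and every panel spans the same number of log2 units. The PIAS3 arrays lie far apart for PSAT1 and ASNS, the siRNA arrays lie above both controls for every gene but SHMT1, and SHMT1 is flat near 4.1.

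PHGDH (Entrez gene 26227), which commits 3-phosphoglycerate to serine, read 8.97 and 10.04 with PIAS3, 9.55 and 9.62 with the siRNA, and 8.82 and 8.74 in control arrays. All 4 transfected arrays lay above both controls, PIAS3 replicate 1 by the smallest margin. Its log2 difference from control was 0.81 ± 0.30 with the siRNA (1.75-fold, 95% interval 0.10 to 1.51, adjusted p = 0.9998) and 0.73 ± 0.30 with PIAS3 (1.65-fold, interval 0.02 to 1.43, adjusted p = 0.344). In a limma fit of the siRNA and control groups alone, the adjusted p was 0.135. Another probe set is annotated to PHGDH together with MZT2A and MZT2B, so it cannot be given to PHGDH. It too lay above both controls in all 4 transfected arrays, with differences of 0.24 ± 0.13 for PIAS3 and 0.21 ± 0.13 for the siRNA.

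PSAT1 (Entrez gene 29968), the aminotransferase of the pathway, varied most of the 9 genes. It read 8.84 and 10.45 with PIAS3, 10.72 and 10.59 with the siRNA, and 9.91 and 10.15 in control arrays. The PIAS3 arrays thus held the lowest value of all, on one side of the controls, and a value above both controls on the other. With the siRNA the difference from control was 0.62 ± 0.44 (interval -0.41 to 1.65, adjusted p = 0.9998), and with PIAS3 it was -0.39 ± 0.44 (interval -1.42 to 0.64, adjusted p = 0.779). For the siRNA, a limma fit without the PIAS3 arrays gave an adjusted p of 0.312. Both PIAS3 arrays lay below both siRNA arrays, by -1.01 ± 0.44 on average (2.02-fold, adjusted p = 0.616).

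PSPH (Entrez gene 5723), the phosphatase of the last step, varied little by comparison. Its brighter probe set read 7.83 and 8.27 with PIAS3, 8.46 and 8.29 with the siRNA, and 8.24 and 8.28 in control arrays. The margin between siRNA replicate 2 and the nearer control was small, and the difference from control was 0.12 ± 0.16 with the siRNA and -0.21 ± 0.16 with PIAS3. Its dimmer probe set gave 6.95 and 7.70 with PIAS3, 8.17 and 7.73 with the siRNA, and 7.30 and 7.66 in control arrays. There the siRNA difference was 0.47 ± 0.27. Both probe sets put PIAS3 replicate 1 lowest and siRNA replicate 1 highest. RefSeq lists a pseudogene of PSPH, PSPHP1, and whether the probes tell them apart was not tested.

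SHMT2 (Entrez gene 6472), the mitochondrial serine hydroxymethyltransferase, had 3 probe sets of its own. The brightest read 10.43 and 11.02 with PIAS3, 11.10 and 11.02 with the siRNA, and 10.84 and 10.73 in control arrays. The siRNA arrays lay above both controls, and the PIAS3 arrays lay on either side of them. The differences from control were 0.28 ± 0.19 with the siRNA and -0.06 ± 0.19 with PIAS3. The PIAS3 value was 0.02 after cyclic loess normalization. The other SHMT2 probe sets gave 0.35 ± 0.17 and 0.26 ± 0.27 with the siRNA and -0.15 ± 0.17 and -0.23 ± 0.27 with PIAS3, and in the dimmest of them the siRNA and control arrays overlapped. In all 3 probe sets PIAS3 replicate 1 was the lowest array and siRNA replicate 1 the highest.

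SHMT1 (Entrez gene 6470), its cytosolic counterpart, had a dim probe set of its own and a brighter shared one. The single-symbol probe set lay between 4.02 and 4.17 in the 6 arrays, with only 12.2% of all probe sets dimmer. Its differences from control were -0.01 ± 0.11 with PIAS3 and 0.06 ± 0.11 with the siRNA. A brighter probe set is annotated to SHMT1 and to MIR6778, a microRNA gene that RefSeq places inside SHMT1. It read 8.12 and 8.59 with PIAS3, 8.87 and 8.69 with the siRNA, and 8.59 and 8.70 in control arrays. There PIAS3 replicate 1 was again the lowest array and siRNA replicate 1 the highest.

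MTHFD2 (Entrez gene 10797), which oxidises the folate-bound carbon unit in mitochondria, read 10.90 and 11.59 with PIAS3, 11.35 and 11.50 with the siRNA, and 11.10 and 11.23 in control arrays. Its difference from control was 0.27 ± 0.21 with the siRNA (1.20-fold) and 0.08 ± 0.21 with PIAS3. The siRNA arrays lay above both controls, while the PIAS3 arrays held the lowest and the highest value.

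ASNS (Entrez gene 440), the asparagine synthetase, read 9.86 and 11.28 with PIAS3, 11.17 and 11.23 with the siRNA, and 10.47 and 10.38 in control arrays. The 2 siRNA arrays lay within 0.06 of each other and above both controls, and the PIAS3 arrays again lay on either side. Its difference from control was 0.77 ± 0.39 with the siRNA (1.71-fold, interval -0.13 to 1.68, adjusted p = 0.9998) and 0.14 ± 0.39 with PIAS3 (interval -0.77 to 1.05, adjusted p = 0.929). The fit pools the spread of all groups, so the wide PIAS3 pair enters this SE too. For the siRNA, a limma fit without the PIAS3 arrays gave an adjusted p of 0.146.

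The promoter of ASNS is shown because it carries a nutrient response site known to bind ATF4 and C/EBP factors, and those of PSAT1 and PHGDH because these genes also stood above control with the siRNA. Each stretch covers the 120 bases before a RefSeq start (GRCh38.p14), on the gene's strand. They lie at chr7:97872409-97872528 (minus strand) for ASNS, chr9:78297005-78297124 (plus strand) for PSAT1 and chr1:119711814-119711933 (plus strand) for PHGDH. For ASNS, which has 2 RefSeq windows, the first listed is shown. Capitals mark a match to TGATGNAA, the core of the C/EBP and ATF response element.
ASNS: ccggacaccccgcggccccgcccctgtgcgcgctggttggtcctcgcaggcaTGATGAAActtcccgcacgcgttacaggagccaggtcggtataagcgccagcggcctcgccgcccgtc
PSAT1: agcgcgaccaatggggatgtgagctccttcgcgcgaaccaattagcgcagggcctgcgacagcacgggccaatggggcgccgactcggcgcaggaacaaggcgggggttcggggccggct
PHGDH: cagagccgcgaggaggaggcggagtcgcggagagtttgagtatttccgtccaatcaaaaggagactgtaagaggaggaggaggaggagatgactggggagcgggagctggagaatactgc

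The match in ASNS covers bases -68 to -61 before the start. RefSeq windows of 250 bases before to 50 after a start were at hand for 7 of the 9 genes (PHGDH, PSAT1, SHMT1, MTHFD2, ASNS, CTH and CBS), 10 windows in all, and PSPH and SHMT2 are named only. ASNS had 2 of these windows, CBS had 3 and each of the other genes had 1. On either strand, TGATGNAA was found in 1 of the 10 windows, 1 of the 2 of ASNS, and in 3.62% of all 35116 windows. The antioxidant response element core TGACNNNGC was found in 2 of the 10, that of MTHFD2 and 1 of the 3 of CBS, and in 13.3% of all windows. The E-box CACGTG was in 0 of the 10 and in 7.26% of all. The STAT site core TTCNNNGAA was in 1 of the 10, that of SHMT1, and in 7.66% of all.

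The SHMT1 stretch is shown because STAT3 is the factor targeted in this study, and the CBS stretch because CBS followed ASNS across the arrays. Capitals mark TTCNNNGAA in SHMT1, in bases -250 to -131 before the start at chr17:18363681-18363800 (minus strand). In CBS they mark TGACNNNGC, matched on the opposite strand, in bases -120 to -1 at chr21:43076378-43076497 (minus strand). This is the first listed of the 3 CBS windows.
SHMT1: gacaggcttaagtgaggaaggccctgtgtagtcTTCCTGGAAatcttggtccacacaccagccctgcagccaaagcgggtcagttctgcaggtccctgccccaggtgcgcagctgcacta
CBS: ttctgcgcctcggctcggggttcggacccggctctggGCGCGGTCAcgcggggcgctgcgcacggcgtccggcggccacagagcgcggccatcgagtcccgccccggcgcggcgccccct
These matches are letters in a window and say nothing on binding in these cells.

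CBS (Entrez gene 875), which starts the transfer of sulfur from homocysteine to serine, read 7.41 and 8.29 with PIAS3, 8.25 and 8.25 with the siRNA, and 7.83 and 7.83 in control arrays. The replicates of the siRNA and control groups were nearly identical and did not overlap with each other. Its difference from control was 0.42 ± 0.25 with the siRNA (1.34-fold, interval -0.17 to 1.01, adjusted p = 0.9998) and 0.02 ± 0.25 with PIAS3. Here too the wide PIAS3 pair enters the SE. In a limma fit of the siRNA and control groups alone, the adjusted p was 0.392. The PIAS3 arrays lay at -0.42 and 0.46 from the control mean.

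CTH (Entrez gene 1491), which releases cysteine in the next step, had 2 dim probe sets. Its brighter probe set read 5.78 and 6.28 with PIAS3, 5.41 and 5.78 with the siRNA, and 4.72 and 5.07 in control arrays. Both PIAS3 arrays lay above both controls, as they did for PHGDH. The difference from control was 1.14 ± 0.21 with PIAS3 (2.20-fold, interval 0.64 to 1.63, adjusted p = 0.0973) and 0.70 ± 0.21 with the siRNA (1.63-fold, interval 0.21 to 1.20, adjusted p = 0.878). Its mean level lies below the 40th percentile of all probe sets, where RMA compresses changes. Its other probe set read 5.55 and 5.63 with PIAS3, 4.91 and 5.24 with the siRNA, and 4.79 and 5.06 in control arrays. That gave 0.66 ± 0.15 with PIAS3 (adjusted p = 0.130) and 0.15 ± 0.15 with the siRNA, so for the siRNA the probe sets differed in size and only 1 of them separated the groups.

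**Figure D2:**
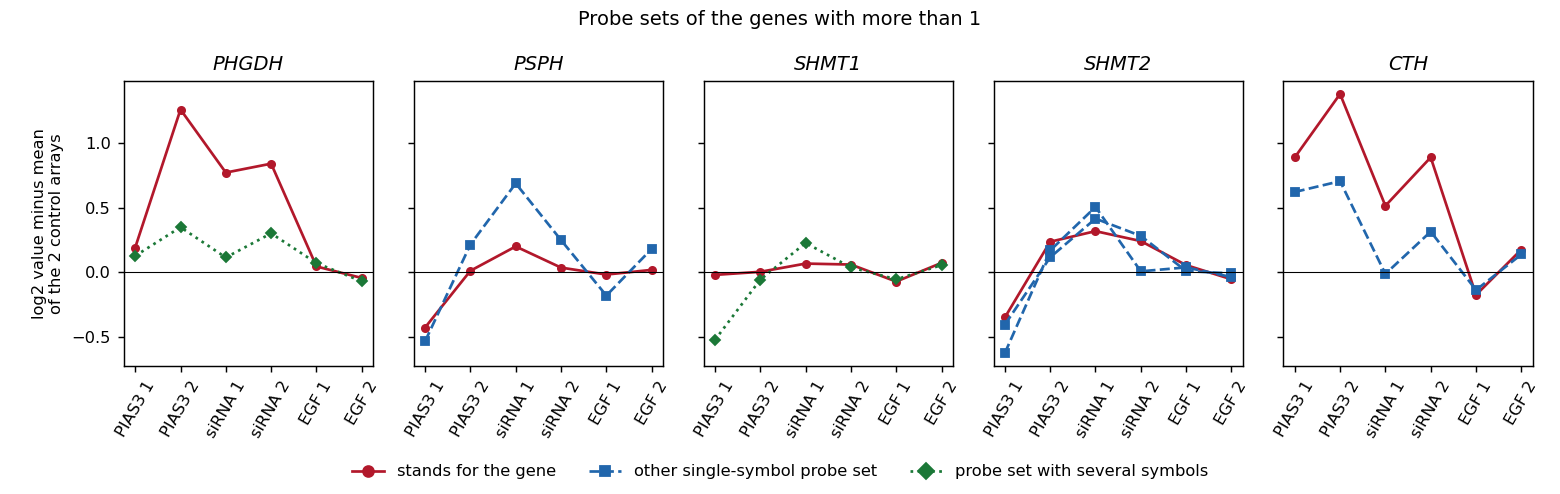
Log2 value minus the mean of the 2 control arrays for every probe set of the genes that have more than 1, with the PIAS3, STAT3 siRNA and EGF control arrays from left to right; solid lines are the probe sets that stand for the genes, dashed lines other single-symbol probe sets and dotted lines probe sets that name several genes. The 3 SHMT2 probe sets run alike, PIAS3 replicate 1 is lowest for PSPH and SHMT2, and both CTH probe sets are highest with PIAS3.

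Set against control, the PIAS3 plasmid gave no common direction for these genes. Of 9, 5 had a mean above control and 4 below, with a median difference of 0.02 against -0.00425 over all genes. Both PIAS3 arrays lay above both controls for 2 genes, PHGDH and CTH, and below both for 0, where 22.4% of all genes lay above and 23.7% below. No member passed the test, where 0.0990% of all probe sets did (22 of 22215), 0.0270% above control and 0.0720% below. An unadjusted p under 0.05 was found for 2 members, PHGDH and CTH, both above control, where 7.13% of all genes had one above control and 7.44% below. Counted per gene, 0.125% passed the test.

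For most of these genes the PIAS3 arrays lay on opposite sides of the control mean. PIAS3 replicate 1 lay below both controls for 6 of 9 genes (PSAT1, PSPH, SHMT2, MTHFD2, ASNS and CBS), where 43.8% of all genes did, and above both for PHGDH and CTH, where 39.5% did. PIAS3 replicate 2 lay above both for 7 of 9 (PHGDH, PSAT1, SHMT2, MTHFD2, ASNS, CTH and CBS), where 39.4% of all genes did, and below both for 0, where 37.8% did. The gap between the replicates was -1.61 for PSAT1, -1.42 for ASNS, -1.07 for PHGDH and -0.88 for CBS, against an SD of 0.37 over all genes. Without PIAS3 replicate 1 the differences from control were 0.41 for PSAT1, 0.85 for ASNS, 1.26 for PHGDH and 0.46 for CBS. Without PIAS3 replicate 2 they were -1.19, -0.57, 0.19 and -0.42, in a fit that rests on PIAS3 replicate 1 alone. That array is the one with high interferon genes and spike-ins, and its 3' to 5' difference for actin was 0.43, against 0.28 in PIAS3 replicate 2, 0.16 and 0.23 with the siRNA, and 0.12 and 0.10 in control arrays. For GAPDH it did not stand apart, at 0.40, against 0.37 in PIAS3 replicate 2, 0.29 and 0.40 with the siRNA, and 0.36 and 0.29 in control arrays. The part of these in the low values was not tested.

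Set against control, the STAT3 siRNA gave means on one side of control but no call. All 9 genes had a mean above control, with a median difference of 0.42 against -0.00155 over all genes, and the values ran between 0.06 (SHMT1) and 0.81 (PHGDH). Both siRNA arrays lay above both controls for 8 of 9 genes, all but SHMT1, where 19.4% of all genes did, and below both for 0, where 19.5% did. Taken singly, siRNA replicate 1 lay above both controls for 8 genes, where 41.8% of all genes did and 32.1% lay below. For siRNA replicate 2 the count was also 8, where 33.7% of all genes lay above and 44.0% below. No member passed the test, where 0.00450% of all probe sets did (1 of 22215), or 0.00836% of all genes. An unadjusted p under 0.05 was found for PHGDH and CTH, where 2.32% of all genes had one above control and 3.06% below. Leaving out each siRNA or control array in turn gave a median of 0.42 every time. The median gene was CBS, whose paired arrays were nearly identical, so this median had little room to move. Leaving out a PIAS3 array cannot change these differences. The siRNA and PIAS3 comparisons share their control arrays.

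Between the transfected groups, PIAS3 lay below the siRNA for 8 of 9 means, with CTH above, and the median difference was -0.33. Both PIAS3 arrays lay below both siRNA arrays for 4 genes (PSAT1, PSPH, SHMT1 and SHMT2), where 17.5% of all genes did, and above both for 0, where 17.0% did. SHMT1 entered this count by its dim probe set, with a difference of only -0.07 ± 0.11. The difference was -1.01 ± 0.44 for PSAT1, -0.63 ± 0.39 for ASNS, -0.40 ± 0.25 for CBS and 0.43 ± 0.21 for CTH. No member passed, and 0 of 22215 probe sets did (0% of all). An unadjusted p under 0.05 was found for 0 members, by the probe sets that stand for them, where 3.83% of all genes had one below the siRNA and 4.19% above. Of their other probe sets, 4 had one. These were the dimmer CTH probe set (0.51 ± 0.15, PIAS3 above the siRNA in every array), an SHMT2 probe set (-0.49 ± 0.17), the probe set shared by SHMT1 and MIR6778 (-0.42 ± 0.17) and the dimmer PSPH probe set (-0.63 ± 0.27). In the last 3 both PIAS3 arrays lay below both siRNA arrays, and the limma adjusted p of these 4 lay between 0.607 and 0.615. Without PIAS3 replicate 2 the differences from the siRNA were -1.81 for PSAT1, -1.34 for ASNS and -0.84 for CBS. Without PIAS3 replicate 1 these values were -0.21, 0.08 and 0.04.

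**Figure D3:**
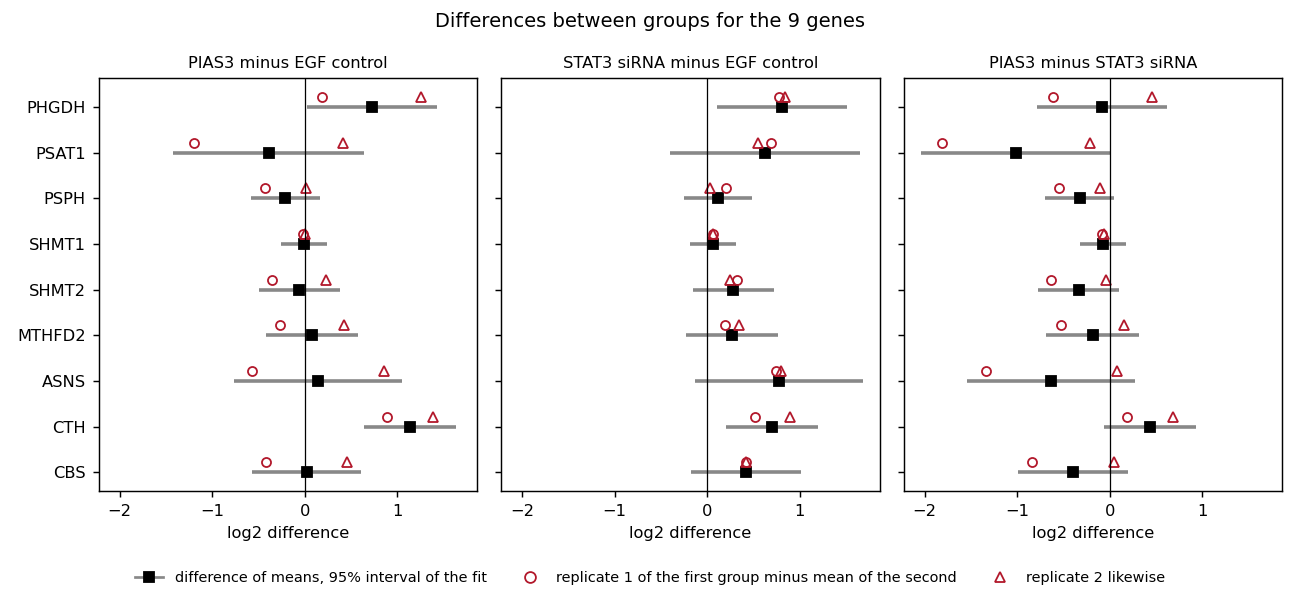
Log2 differences between groups for the 9 genes in 3 comparisons, with squares for the difference of means, grey lines for the 95% interval of the fit, and open circles and triangles for replicates 1 and 2 of the first-named group minus the mean of the second. In the PIAS3 panels the circles lie left of the triangles for every gene, while in the siRNA panel both lie right of 0.

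By group mean, the order of levels was siRNA, control, PIAS3 for PSAT1, PSPH, SHMT1 and SHMT2, siRNA, PIAS3, control for PHGDH, MTHFD2, ASNS and CBS, and PIAS3, siRNA, control for CTH. The siRNA and control groups did not overlap for 8 genes, where 19.4% of all genes lay above control without overlap and 19.5% below. The PIAS3 arrays overlapped with the control arrays for 7 genes, where 6443 of all 11963 genes did. With the siRNA arrays they overlapped for 5, where 7838 of all 11963 did.

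Several members ran together across the 6 arrays, which share their groups and, in PIAS3 replicate 1, an array that stood apart. Pearson's r was 0.994 between ASNS and CBS, 0.98 between SHMT2 and CBS, 0.96 between PSAT1 and PSPH and 0.95 between ASNS and MTHFD2. CTH had an r of 0.06 to PSAT1 and -0.19 to PSPH. Among 3367 other genes with a range of at least 0.5, ASNS was most like CBS (0.994), then ATP6V0B and GGCX (both 0.98). PSAT1 was most like DNA2 (0.998), NDUFB6 and SIVA1 (both 0.99), and CTH was most like ANKEF1 (0.997), ABCG1 (0.99) and HR (0.98). The range of DNA2 was 0.51, against 1.88 for PSAT1, so a high r here is likeness of shape and not of size.

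The 7 glycolytic genes that lead to and past 3-phosphoglycerate had medians of -0.25 and -0.08 with PIAS3 and 0.01 and -0.03 with the siRNA, relative to the control mean. Of these, 6 lay below both controls in both PIAS3 arrays, where 23.7% of all genes did, and 0 passed the test. PKM, the pyruvate kinase, read 12.78 and 13.01 with PIAS3 against 13.28 and 13.26 in control arrays (-0.37 ± 0.12, adjusted p = 0.228). The mean of all PKM probe sets gave -0.0508. PGAM1, the mutase that draws on 3-phosphoglycerate, differed by -0.36 ± 0.16. Its difference was -0.13 without PIAS3 replicate 1, and -0.58 without replicate 2.

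Folate enzymes were measured for 11 of 16 genes listed, and 0 passed in any comparison. Their medians were -0.34 and -0.05 with PIAS3 and 0.01 and 0.05 with the siRNA. MTHFD1, a cytosolic folate enzyme, read 10.57 and 10.77 with PIAS3 against 11.12 and 10.99 in control arrays (-0.39 ± 0.12, adjusted p = 0.238). MTHFD2L, a close relative of MTHFD2, read 5.53 and 5.80 with PIAS3 against 5.16 and 5.20 in control arrays (0.49 ± 0.18, limma adjusted p = 0.292). It is dim, with every value below 5.99, the 40th percentile of mean level. For MTHFD1 and MTHFD2L the PIAS3 and control arrays did not overlap. Of the 11, 2 lay above both controls in both PIAS3 arrays and 5 below, where 22.4% and 23.7% of all genes did. Next by p, FPGS (-0.32 ± 0.14) and GART (-0.39 ± 0.18) were among those below.

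Enzymes that break down glycine and serine were measured for 8 of 9 genes, with 0 past the test. Their medians relative to the control mean were -0.19 and -0.02 with PIAS3 and 0.02 and -0.06 with the siRNA. With PIAS3, both arrays lay above both controls for 1, GLDC, and below both for 3, where 22.4% and 23.7% of all genes did. The 3 were GCSH (-0.28 ± 0.14), DLD (-0.19 ± 0.11) and SPTLC2 (-0.17 ± 0.12). GLDC, the decarboxylase of the glycine cleavage system, read 7.62 and 8.38 with PIAS3 and 7.44 and 8.26 with the siRNA, against 7.45 and 7.18 in control arrays. Its difference from control was 0.68 ± 0.32 with PIAS3 and 0.53 ± 0.32 with the siRNA. For the siRNA the arrays overlapped with the controls. The PIAS3 difference was 1.06 without PIAS3 replicate 1 and 0.30 without replicate 2.

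Around CBS and CTH, the methionine cycle and cysteine list of 17 genes had 7 with both PIAS3 arrays above both controls and 2 below, where 22.4% of all genes lay above and 23.7% below, and 0 passed the test. MAT2A, which makes S-adenosylmethionine, read 11.77 and 11.28 with PIAS3 against 10.80 and 10.74 in control arrays (0.75 ± 0.25, adjusted p = 0.248). GCLC and GCLM, the subunits of the enzyme that uses cysteine to start glutathione synthesis, differed by 0.93 ± 0.21 and 0.56 ± 0.14 with PIAS3 and by 0.51 ± 0.21 and 0.44 ± 0.14 with the siRNA. Both subunits lay above the controls in all 4 transfected arrays. The PIAS3 difference of GCLC was 0.67 without PIAS3 replicate 1 and 1.19 without replicate 2. TST, a sulfur transferase, differed by 0.53 ± 0.11 with PIAS3 (adjusted p = 0.109).

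Around ASNS, 12 of 15 genes of aspartate, glutamine and proline metabolism were measured and 0 passed. GOT1, the cytosolic aspartate aminotransferase, read 8.997 and 9.48 with PIAS3 and 9.17 and 9.45 with the siRNA, against 8.85 and 8.83 in control arrays. All 4 transfected arrays lay above both controls, by 0.39 ± 0.18 with PIAS3 and 0.47 ± 0.18 with the siRNA. The PIAS3 difference was 0.64 without PIAS3 replicate 1 and 0.15 without replicate 2. ASS1, which joins aspartate to citrulline, differed most of this list with PIAS3, by 1.11 ± 0.18 (adjusted p = 0.0792). It passed in a fit of the PIAS3 and control groups alone (limma adjusted p = 0.0271). ASL, second by p in this list, lay below both controls in both PIAS3 arrays (-0.51 ± 0.19, limma adjusted p = 0.303). With PIAS3, 4 of the 12 genes had a mean above control and 8 below. Both PIAS3 arrays lay above both controls for 2 and below both for 2, where 22.4% and 23.7% of all genes did.

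The 13 amino acid transporters had medians between -0.02 and 0.03 in the transfected arrays, and 0 passed. With PIAS3 the smallest p was that of SLC7A1, a carrier of arginine and lysine, which read 9.83 and 10.37 with PIAS3 against 10.55 and 10.52 in control arrays (-0.44 ± 0.18, adjusted p = 0.341). That difference was -0.16 without PIAS3 replicate 1 and -0.71 without replicate 2. With the siRNA, the 4 of smallest p were SLC1A4 (0.49 ± 0.26), SLC7A6 (-0.20 ± 0.12), SLC1A5 (0.35 ± 0.21) and SLC7A5 (0.25 ± 0.17). SLC7A6 lay below both controls in both siRNA arrays, and the other 3 lay above them. SLC1A4 and SLC1A5 carry neutral amino acids, serine among them. SLC1A5 read 10.13 and 10.84 with PIAS3 against 10.99 and 11.09 with the siRNA, a difference of -0.55 ± 0.21. That difference was -0.20 without PIAS3 replicate 1, and -0.91 without replicate 2. Of the tRNA synthetases for serine, glycine, asparagine, cysteine and methionine, 4 of 5 were measured (SARS1, GARS1, NARS1 and CARS1). Their median was -0.42 in PIAS3 replicate 1 and 0.12 in replicate 2, and their siRNA differences lay between 0.02 and 0.13.

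**Figure D4:**
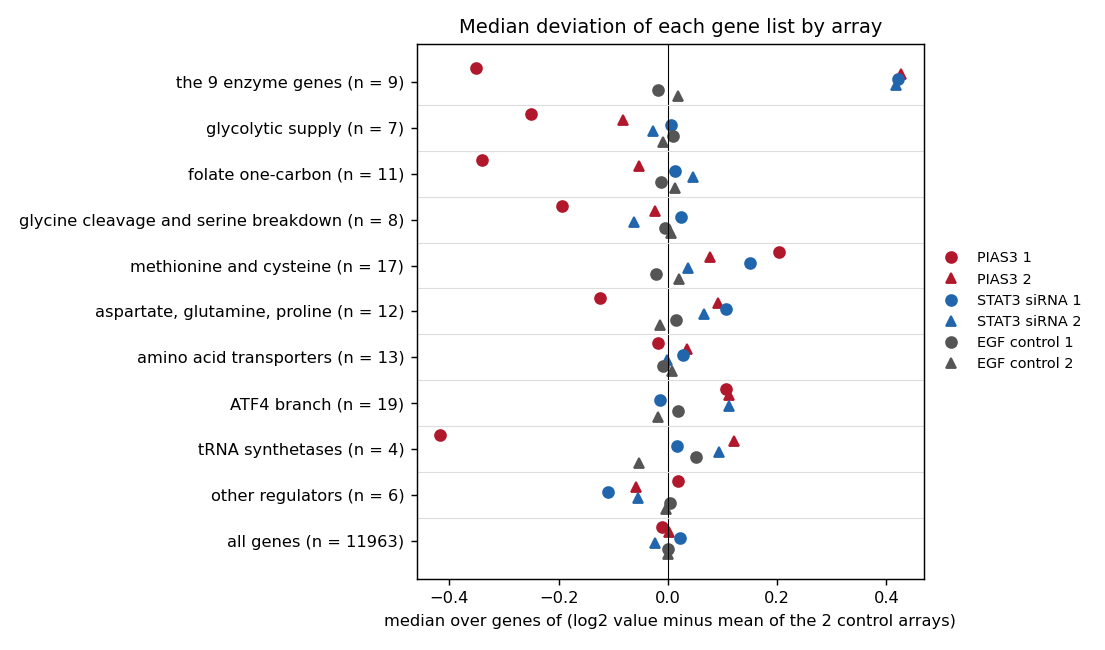
Median over the genes of each list of the log2 value minus the mean of the 2 control arrays, for the PIAS3, STAT3 siRNA and EGF control arrays, with circles for replicate 1 and triangles for replicate 2. The 9 enzyme genes stand near 0.42 in 3 arrays and at -0.35 in PIAS3 replicate 1, while the other lists lie between -0.11 and 0.15 in the same 3 arrays.

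The known regulators of the pathway gave no common direction. Of 22 genes of the ATF4 branch, 19 were measured and 0 passed in any comparison. ATF4 itself read 11.42 and 11.51 with PIAS3, 11.03 and 11.60 with the siRNA, and 11.48 and 11.30 in control arrays, so its groups overlapped. These are RNA levels, while ATF4 is known to be controlled largely at translation. With the siRNA, 5 of the 19 lay above both controls and 5 below, where 19.4% and 19.5% of all genes did. An unadjusted p under 0.05 was found for 0 above control and 4 below, where 2.32% and 3.06% of all genes had one. With PIAS3 it was found for 5 above and 2 below, where 7.13% and 7.44% of all genes had one.

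Of this list, the 3 genes with the smallest p with the siRNA were ATF3, STC2 and TRIB3. ATF3, a stress-induced factor, read 6.53 and 6.27 with the siRNA against 8.92 and 8.88 in control arrays (-2.50 ± 0.47, adjusted p = 0.442), and it passed in a fit of these groups alone (adjusted p = 0.00536). With PIAS3 it read 8.37 and 6.65, also below both controls (-1.39 ± 0.47, limma adjusted p = 0.254). With the siRNA, STC2, a secreted glycoprotein induced by ATF4, differed by -0.59 ± 0.12 (adjusted p = 0.495). TRIB3, a pseudokinase that inhibits ATF4, differed by -0.45 ± 0.18. PPP1R15A, next by p, differed by -0.52 ± 0.21. In size NUPR1, a stress-induced chromatin protein, lay between STC2 and TRIB3 on the other side of control (0.53 ± 0.32), with arrays that overlapped.

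With PIAS3, CEBPB, a partner of ATF4, read 12.21 and 11.66, against 11.07 and 11.04 in control arrays (0.88 ± 0.17, adjusted p = 0.104). DDIT4, an inhibitor of mTORC1, differed by 0.53 ± 0.10 (adjusted p = 0.0973) and STC2 by -0.72 ± 0.12 (adjusted p = 0.0792). STC2 passed in a fit of the PIAS3 and control groups alone (adjusted p = 0.0480). The difference of CEBPB was 0.60 without PIAS3 replicate 1 and 1.15 without replicate 2. CEBPB and DDIT4, like CTH, lay above control in both PIAS3 arrays. NFE2L2, which encodes NRF2, differed by 0.59 ± 0.16 with PIAS3 (adjusted p = 0.192). MYC, another known activator of serine synthesis genes, lay below both controls in all 4 transfected arrays, by -0.12 ± 0.16 with PIAS3 and -0.33 ± 0.16 with the siRNA.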

How the data were processed

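Deposited values are log2 levels, 1 per probe set and array, made by RMA (per the submitters' processing notes, which the authors gave without a version). RMA subtracts background, equalises the distributions of the arrays and combines probes, which compresses changes of dim genes. No other upstream step is known from the labels. The table holds 22277 probe sets, of which 62 array controls were left out. The platform annotation gave 19064 of the rest 1 symbol. Members, lists and tests were chosen with earlier results of these data known. In limma 3.58.1 (R 4.3.3) all 6 arrays entered 1 model with a mean per group, and two-sided p-values were adjusted by Benjamini-Hochberg over 22215 probe sets. The fit had 3 residual and 4.27 prior degrees of freedom. An exact permutation of 2 against 2 arrays cannot go below p = 0.333. Tested on simulated data for PIAS3 against control (22215 probe sets), the model found 75.5% of changes of 1 log2, and 4.79% of calls were false. The simulation gave all groups the same independent spread. The real pairs differed, with an SD over all genes of 0.37 for PIAS3 and 0.14 for control. These rates therefore need not hold for the real arrays.

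Each list contributes up to 4 names per comparison, by smallest p. Values of a named gene in its other comparisons, and those of ATF4, NUPR1, MYC and the transporter and synthetase ranges, are given beside them and were picked after they were seen. For likeness, the 3 members of widest range each received the 3 genes of highest r. The alternatives changed the replicate block, the normalization, the filter, the eBayes settings, the groups fitted and the probe set rule, and dropped each array. A fit with array weights was chosen after seeing the data. The number of arrays limits the precision. Promoters are RefSeq windows of GRCh38.p14.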

Additional observations from a re-analysis of the deposited data

How the results depend on the processing

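No member was called under any setting that kept all 6 arrays or fitted 2 groups alone. For PIAS3 against control, the 22 probe sets called became 2 with the replicate block, 2 after quantile normalization, 2 with the filter on dim probe sets, 39 after cyclic loess, 40 with robust eBayes, 262 in a fit of the 2 groups alone, 143 with array weights (chosen after seeing the data), and 0 to 1232 when 1 array was left out. For the siRNA against control, the single call became 0 after quantile normalization or cyclic loess, 3 with the 2 groups alone, 8 with array weights and 0 to 5 with 1 array left out. For PIAS3 against the siRNA it was 0, and 0 to 544 with 1 array left out. Whether the replicate numbers pair the arrays is not given in the labels. Deviations correlated at -0.05 between PIAS3 and siRNA, 0.09 between PIAS3 and control and -0.06 between siRNA and control. The replicate block gave 2 calls for PIAS3 against control, 1 for the siRNA against control and 0 for PIAS3 against the siRNA. With 2 arrays per group, 1 of them standing apart, these values cannot decide whether a day or culture was shared. With 1 array left out, members passed only in comparisons with PIAS3, and only without PIAS3 replicate 2. They were PSAT1 (-1.19) and ASNS (-0.57) against control, and PSAT1 (-1.81), ASNS (-1.34) and CBS (-0.84) against the siRNA. All of these were lower with PIAS3, in a fit that rests on PIAS3 replicate 1 alone. In these comparisons, leaving out PIAS3 replicate 2 also gave the most calls over all probe sets. A group left with 1 array is assumed to vary like the others. With 1 array left out, the PIAS3 difference from control ranged from -1.19 to 0.41 for PSAT1, -0.43 to 0.0111 for PSPH, -0.0812 to 0.0637 for SHMT1, -0.35 to 0.24 for SHMT2, -0.26 to 0.43 for MTHFD2, -0.57 to 0.85 for ASNS and -0.42 to 0.46 for CBS. That of the siRNA ranged from -0.00914 to 0.14 for SHMT1. PIAS3 minus siRNA ranged from -0.62 to 0.45 for PHGDH, -0.53 to 0.16 for MTHFD2, -1.34 to 0.0799 for ASNS and -0.84 to 0.0432 for CBS. Cyclic loess gave SHMT2 0.0214 for PIAS3 against control, and the mean of its probe sets gave PKM 0.13 for the siRNA against control; the cause was not tested. Of 142 alternative values for members per comparison, 132, 141 and 135 kept their direction and side of the threshold, in the order above. The single-symbol probe sets of SHMT1 and CTH are dim, which limits their readings.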
